A study of Homo sapiens with 12 samples.

Results

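The nuclear genes that encode subunits of the mitochondrial respiratory chain and of ATP synthase were followed in irradiated MCF10A cells. Members were the protein-coding genes whose symbols name subunits of complexes I to V (the NDUFA, NDUFB, NDUFC, NDUFS and NDUFV, SDH, UQCR, CYC1, COX4 to COX8 and ATP5 genes), and 89 of the 60675 genes in the table fit. They comprised 37 complex I, 4 complex II, 10 complex III, 18 complex IV and 20 complex V genes, and NDUFA4 was placed with complex IV, where its protein belongs. Of the 89, 82 reached a TPM (a transcript's abundance per length, as a share of all transcripts in the library) of at least 1 in at least 2 libraries and were tested. COX4I2, COX6A2, COX7A1 and COX7B2 were listed at 0 in all 12 libraries, and COX6B2, COX8C and ATP5MGL did not exceed 0.8 TPM.

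Total RNA was sequenced from MCF10A, a breast epithelial cell line that is immortal but does not form tumours. The 12 libraries formed 6 groups of 2. WT, IL1R1-KO and IL1RAP-KO cells were each left untreated or irradiated once with 20 Gy, and the irradiated groups are marked RT. IL1R1 binds interleukin-1 and IL1RAP is its co-receptor, and each knockout (KO) was made with lentiviral CRISPR guides in a pool of selected cells rather than a clone. The study calls the 2 libraries of a group biological replicates, and the time from irradiation to RNA extraction is not given in the sources used here.

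Levels are given as scaled TPM, which is the deposited TPM times a factor per library that sets the trimmed mean of gene-wise log ratios between libraries to 0. IL1RAP stood at 4.41 and 4.97 scaled TPM in untreated IL1RAP-KO cells against 18.04 and 20.7 in untreated WT cells. IL1R1 mRNA did not mark the cells labelled IL1R1-KO (11.03 and 7.81 scaled TPM, against 10.7 and 9.46 in WT), so their label has no check here. Mitochondrial transcripts took 18.3% to 21.1% of all TPM in untreated and 36.9% to 56.99% in irradiated libraries, the highest share being that of IL1RAP-KO RT replicate 2. All 13 mammary epithelial markers reached 1 TPM, with summed levels of 4868 to 5862 scaled TPM untreated and 2893 to 4468 irradiated. Of 10 muscle markers 1 reached 1 TPM, and their sum was 0.851 to 1.83 untreated and 1.16 to 2.35 irradiated. The summed fibroblast markers (24.4 to 32.8 untreated, 45.8 to 93.6 irradiated scaled TPM), leukocyte markers (11.7 to 25.2, 34.96 to 82.8) and endothelial markers (3.35 to 5.05, 7.51 to 10.97) were higher after irradiation. Only 3 markers of each of these lists (9, 10 and 7 genes) were tested. At an adjusted p under 0.05 (limma), 1 fibroblast marker was higher and 1 lower in each genotype. All 3 endothelial markers were higher in each. Of the leukocyte markers 1, 2 and 0 were higher in WT, IL1R1-KO and IL1RAP-KO cells. The 13 mammary epithelial markers were mixed although their sum fell, with 2, 4 and 3 higher and 7, 5 and 5 lower in the same order. The part of these markers in the results below was not tested. In these bulk libraries fewer cells of a type and less RNA per cell cannot be told apart.

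Complex I (NADH dehydrogenase) and complex II (succinate dehydrogenase) feed electrons into the chain, complex III (the cytochrome bc1 complex) passes them to cytochrome c, complex IV (cytochrome c oxidase) hands them to oxygen, and complex V (ATP synthase) uses the resulting proton gradient to make ATP. The subunits come from both genomes. The mitochondrial DNA encodes the hydrophobic cores of complexes I, III, IV and V. Complex II and all accessory subunits are encoded by nuclear genes, and their proteins are imported. Several tissue-specific isoforms exist, among them the muscle forms COX6A2 and COX7A1, the testis forms COX6B2, COX7B2 and COX8C, and COX4I2, best known from lung.

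Promoters of these genes are known to be served by the factors NRF1, GABP (also called NRF2) and YY1. RefSeq promoter windows of GRCh38.p14, from 250 bases before to 50 bases after the start, matched 66 of the tested members. The NRF1 motif, searched like the others on both strands, lay in 16 member windows (24.2%) against 6.28% of 27305 windows of all genes. CCGGAAGT, read by GABP, lay in 10 (15.2% against 4.44%), and AAGATGGCG, read by YY1, in 8 (12.1% against 1.85%). At least 1 of the motifs, with a window that holds several counted once, was in 45.5% of member windows and 11.5% of all. The windows of all genes were not limited to protein-coding or expressed genes and were not matched to the members in base content. Stretches upstream of 5 members are shown, all outside the exons annotated in GENCODE release 44, with motif letters in capitals. UQCR11, NDUFB4 and COX8A carry motifs and stand for the windows that hold them, ATP5MC1 had the deepest fall after irradiation in the mean of the 3 genotypes, and ATP5F1E passed as lower in none of them.
UQCR11 (chr19:1605474-1605593, minus strand): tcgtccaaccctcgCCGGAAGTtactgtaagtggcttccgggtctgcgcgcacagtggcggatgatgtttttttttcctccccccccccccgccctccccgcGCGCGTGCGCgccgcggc
NDUFB4 (chr3:120596208-120596327, plus strand): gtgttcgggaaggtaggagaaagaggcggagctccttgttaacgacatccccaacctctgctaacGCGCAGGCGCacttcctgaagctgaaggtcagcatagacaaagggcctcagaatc
COX8A (chr11:63974500-63974619, plus strand): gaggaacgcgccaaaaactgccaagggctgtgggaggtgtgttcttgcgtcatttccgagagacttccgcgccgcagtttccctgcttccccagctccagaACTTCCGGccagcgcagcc
ATP5MC1 (chr17:48892678-48892764, plus strand): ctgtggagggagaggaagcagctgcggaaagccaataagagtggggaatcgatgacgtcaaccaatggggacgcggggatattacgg
ATP5F1E (chr20:59032346-59032465, minus strand): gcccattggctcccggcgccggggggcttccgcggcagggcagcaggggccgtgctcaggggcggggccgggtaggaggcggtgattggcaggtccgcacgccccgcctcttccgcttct
Each is written 5′ to 3′ on the strand of its gene. The UQCR11 stretch holds the GABP letters and, read on the opposite strand, the NRF1 letters. NDUFB4 holds the NRF1 letters and COX8A the GABP letters on the opposite strand, whereas none of the 3 motifs is in the ATP5MC1 and ATP5F1E stretches or in the rest of their windows. Members with and without a motif had nearly the same median change after irradiation, averaged over the 3 genotypes: -0.75 against -0.78 on the log2 scale for NRF1, -0.77 against -0.78 for GABP and -0.76 against -0.77 for YY1.

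Irradiation was compared with no treatment within each genotype. Nuclear-encoded subunit mRNAs fell in all 5 complexes and all 3 genotypes. In WT cells 66 of 82 tested members were lower and 1 was higher at an adjusted p under 0.05 (limma, Benjamini-Hochberg over 15303 genes), where 23.7% of all genes were lower and 19.8% higher. In cells labelled IL1R1-KO 75 were lower and none higher (26.1% of all genes lower, 22% higher), and in IL1RAP-KO cells 77 were lower and none higher (27.3% lower, 22.7% higher). The median log2 difference of the members was -0.64, -0.86 and -0.95 in the same order, with a median over all genes of 0.00 in each. The median member kept 64.05%, 54.97% and 51.8% of its untreated level. A total of 65 members fell in all 3 genotypes, and ATP5F1E, NDUFV3 and UQCRHL fell in none. The share of all genes that fell in all 3 was not counted, and it cannot exceed the 23.7% of WT. In 73 of the 82 the 6 irradiated libraries all lay below the 6 untreated ones, which held for 23.2% of all genes.

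**Figure D1:**
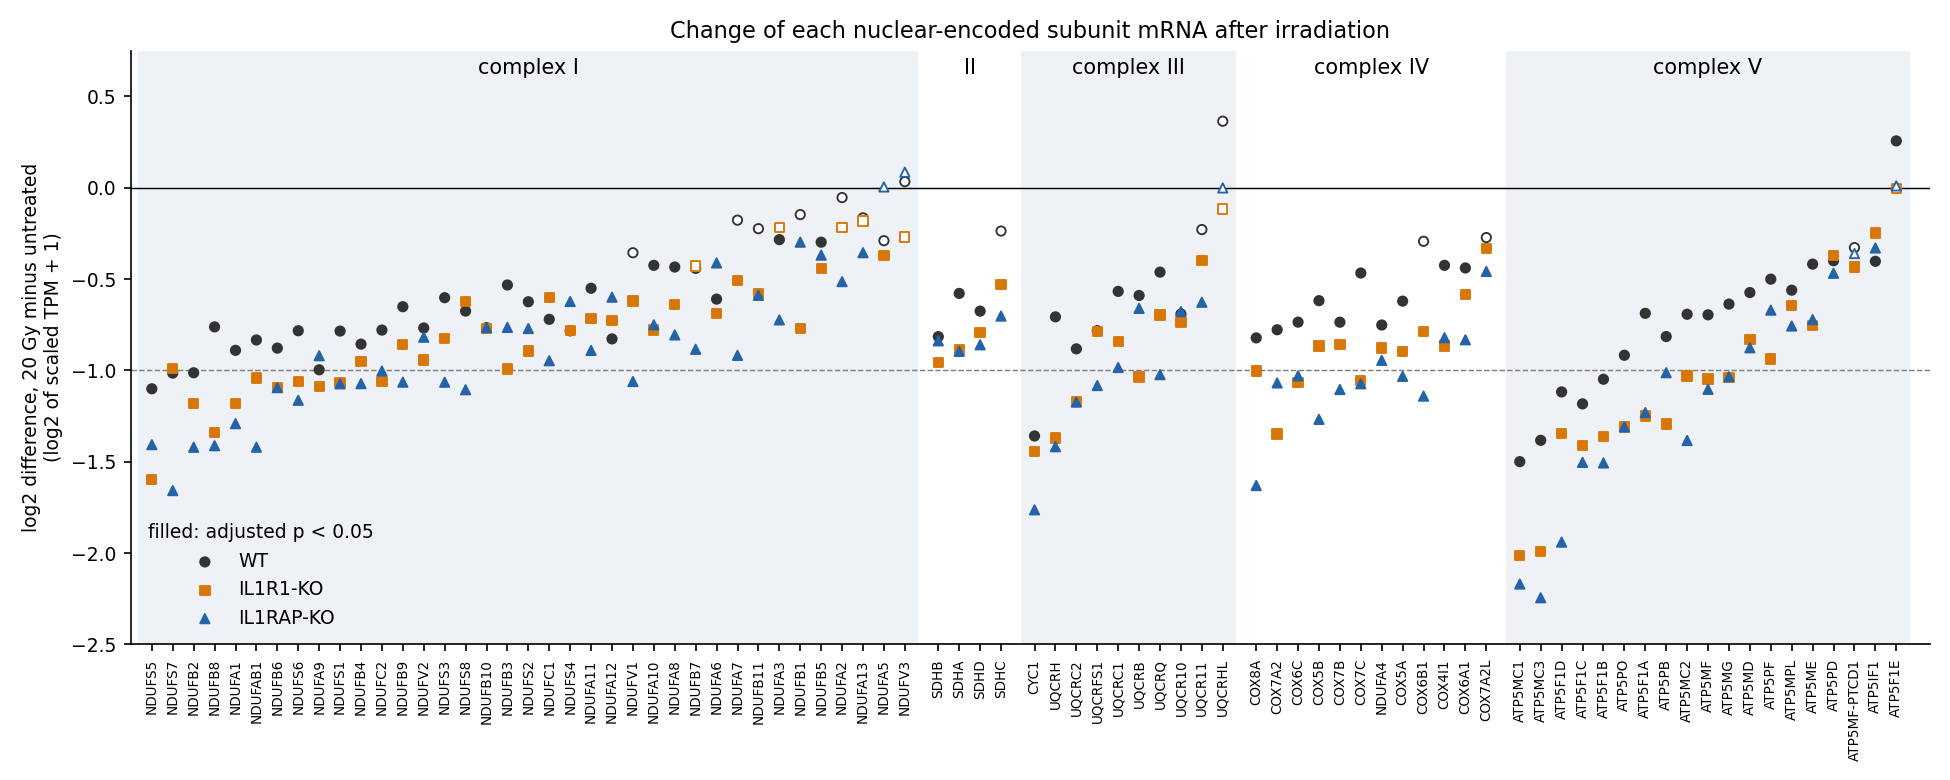
Log2 difference between irradiated and untreated cells (vertical axis, log2 of scaled TPM plus 1) for the 82 tested members, ordered within complexes I to V, with 1 marker per genotype, filled at an adjusted p under 0.05, and a dashed line at 2-fold lower. Nearly all markers lie below 0, the lowest are ATP5MC1 and ATP5MC3 at the left of complex V, and ATP5F1E at its right end lies at 0.26, -0.0025 and 0.01.

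The size of the fall depended on how libraries were set to a common scale, and the median stayed below 0 under each. With TPM as deposited, 74, 67 and 80 members were lower in WT, IL1R1-KO and IL1RAP-KO cells, with medians of -0.91, -0.83 and -1.28 beside all-gene medians of -0.21, 0.03 and -0.28. With the nuclear protein-coding genes set to 1 sum, 60, 49 and 64 were lower and 1, 4 and 3 higher. The member medians were -0.53, -0.38 and -0.54, beside all-gene medians of 0.10, 0.40 and 0.33. The shares of all genes called under these 2 scalings were not counted, so the counts of members have no background here. The member median minus the all-gene median was -0.62 to -0.69 in WT, -0.78 to -0.86 in IL1R1-KO and -0.87 to -1.004 in IL1RAP-KO cells across the 3 scalings. Without IL1RAP-KO RT replicate 2, 77 members were lower in IL1RAP-KO cells.

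As a share of all nuclear protein-coding TPM, which does not depend on a scaling factor, the 89 members made up 2.80% to 2.91% in the 6 untreated libraries. After irradiation the share was 1.93% and 1.95% in WT, 2.04% and 2.12% in IL1R1-KO and 2.01% and 1.83% in IL1RAP-KO cells. The ranges did not overlap, and the share of every complex was lower in every irradiated library than in any untreated one. Complex V went from 0.951% to 0.995% down to 0.567% to 0.676%, and complex I from 0.880% to 0.896% down to 0.610% to 0.693%.

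**Figure D2:**
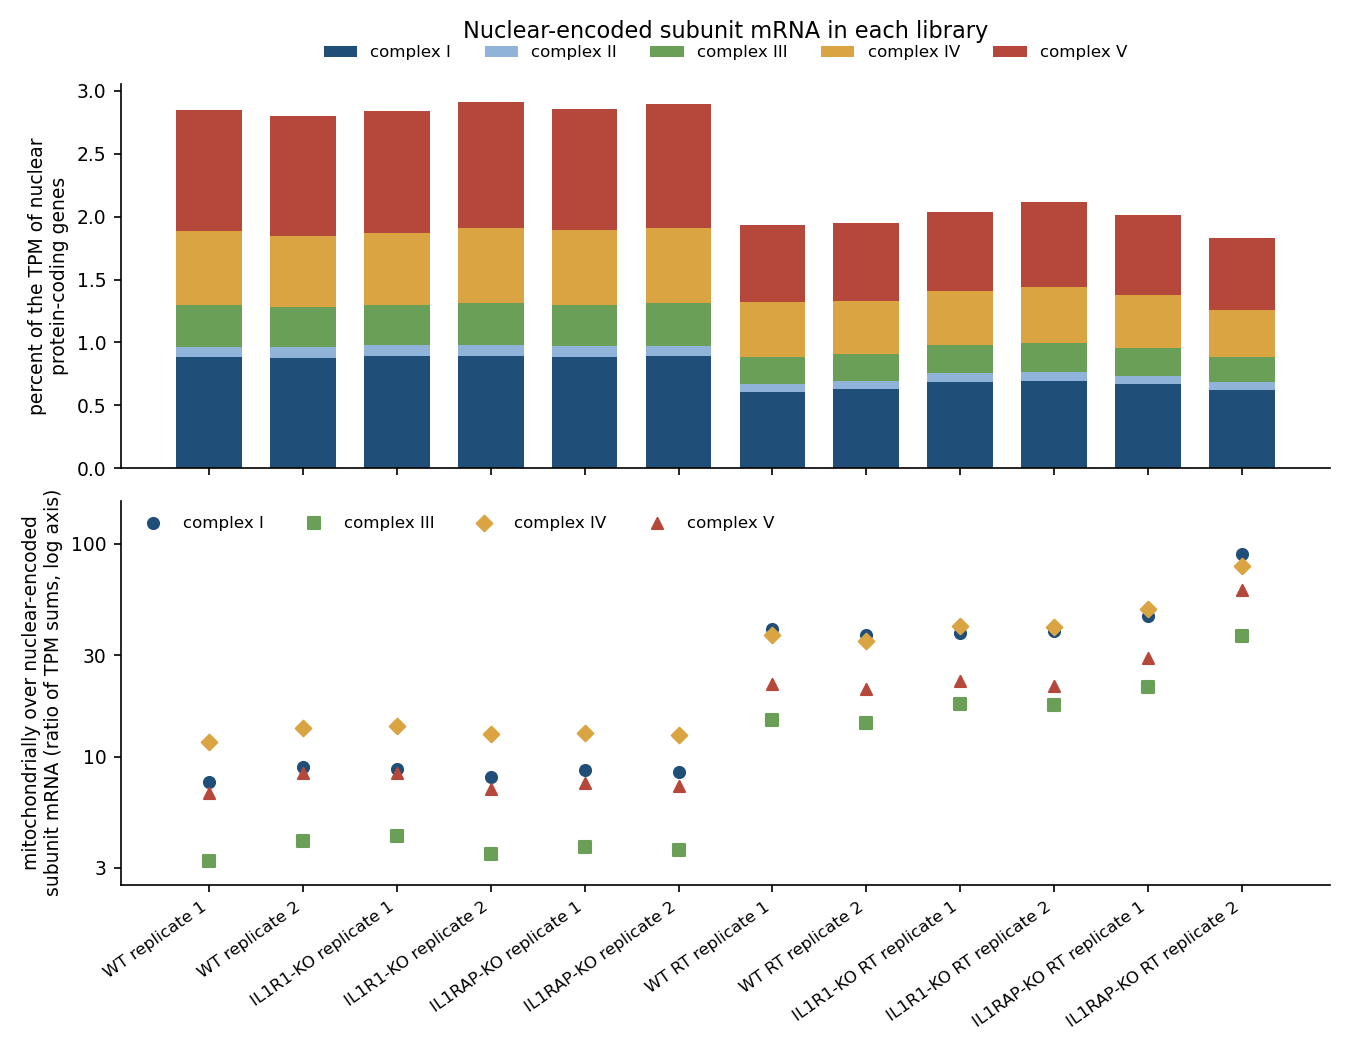
Upper panel: share of nuclear protein-coding TPM taken by the members of each complex (stacked bars, percent) in each of the 12 libraries. Lower panel: ratio of mitochondrially encoded to nuclear-encoded subunit mRNA (sums of TPM, log axis) for complexes I, III, IV and V. The bars reach 2.80% to 2.91% in untreated and 1.83% to 2.12% in irradiated libraries, and every ratio is higher in every irradiated library than in any untreated one, highest in IL1RAP-KO RT replicate 2.

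Complex V showed the deepest fall, with a median log2 difference of -0.95 in the mean of the 3 genotypes, against -0.86 for complex IV and -0.76 to -0.78 for complexes I, II and III. In that mean 79 of 82 members were lower (34.1% of all genes), and 23 were lower by more than 2-fold (7.21% of all genes). The count past 2-fold was 39 with TPM as deposited and 6 with the nuclear sum, where the shares of all genes were not counted. Within complex V the falls of ATP5MC1 (-1.89) and ATP5MC3 (-1.87), genes of the membrane ring that protons turn, were the deepest in that mean, while ATP5MC2 (-1.04) fell less than ATP5F1D (-1.47), ATP5F1C (-1.37) and ATP5F1B (-1.31). ATP5MC1, ATP5MC2 and ATP5MC3 encode 1 and the same mature c subunit behind different import sequences.

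ATP5MC1 (ENSG00000159199, GRCh38 chr17:48892765-48895871, plus strand) stood at 243 and 245 scaled TPM in WT, 225 and 217 in IL1R1-KO and 206 and 233 in IL1RAP-KO cells, and after irradiation at 101 and 72.7, 52.7 and 55.3, and 68.0 and 33.8. All irradiated libraries were far below all untreated ones, and the IL1RAP-KO RT libraries differed most from each other. Its log2 differences were -1.50 (SE 0.26, adjusted p = 0.0012) in WT, -2.01 (SE 0.26, adjusted p = 0.00015) in IL1R1-KO and -2.17 (SE 0.26, adjusted p = 9.6e-05) in IL1RAP-KO cells. ATP5MC3, the most abundant of the c subunit genes in untreated cells, went from 489 to 516 scaled TPM in the 6 untreated libraries to 189 and 188 in WT RT, 114 and 139.9 in IL1R1-KO RT and 129 and 85.3 in IL1RAP-KO RT. Its log2 differences were -1.38, -1.99 and -2.24 (largest adjusted p = 0.00011). ATP5MC2 fell less, from 255 to 284 down to 173 and 160.01, 126 and 136, and 110.0 and 97.1 scaled TPM (log2 differences of -0.69, -1.03 and -1.38).

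The make-up of the c subunit mRNA shifted as well. ATP5MC2 supplied 25.8% to 27.8% of it in untreated libraries and 35.8% to 44.9% in irradiated ones, while ATP5MC3 went from 48.4% to 51.8% down to 39.1% to 44.6%, with no overlap for either. The ATP5MC1 share overlapped between the conditions (21.05% to 24.8% untreated, 15.6% to 22.1% irradiated).

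The catalytic F1 head of ATP synthase split. ATP5F1B, the catalytic beta subunit and the member with the highest mean TPM, stood at 931 and 914 scaled TPM in WT, 901 and 949.7 in IL1R1-KO and 925 and 937 in IL1RAP-KO cells, and after irradiation at 457 and 434, 348 and 372, and 364 and 294. It fell by more than 2-fold in each genotype (log2 differences of -1.05, -1.36 and -1.51, SE 0.10). ATP5F1C, the gamma subunit of the central shaft, had the smallest adjusted p of all members in the mean of genotypes (log2 difference -1.37, SE 0.03, adjusted p = 1.7e-09). ATP5F1D, the delta subunit of the shaft's foot, had log2 differences of -1.12, -1.35 and -1.94, and its level of 13.04 scaled TPM in IL1RAP-KO RT replicate 2 was the lowest of the 12 libraries.

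ATP5F1E (ENSG00000124172, GRCh38 chr20:59025475-59032345, minus strand), the small epsilon subunit of the same foot, was the exception. Its level was 42.1 and 37.2 scaled TPM in WT, 40.8 and 41.9 in IL1R1-KO and 43.0 and 44.3 in IL1RAP-KO cells, and 48.3 and 46.7, 40.1 and 42.5, and 43.4 and 44.6 after irradiation. The IL1R1-KO RT libraries lay within the untreated range, and the WT RT libraries above it. The log2 difference in WT was 0.26 (SE 0.08, adjusted p = 0.029), the only rise among the members on this scale. It was -0.00073 with TPM as deposited (adjusted p = 1) and 0.37 with the nuclear sum (adjusted p = 0.0056), and it missed the threshold without WT replicate 2, WT RT replicate 1 or WT RT replicate 2. In IL1R1-KO and IL1RAP-KO it was -0.0025 (adjusted p = 0.99) and 0.01 (adjusted p = 0.93). With the nuclear sum ATP5F1E was higher there too (0.47, adjusted p = 0.00098, and 0.41, adjusted p = 0.0022). The all-gene medians of both KO lines with that sum, given above, were only a little lower than these values. In the mean of genotypes NDUFV3 was higher with that sum as well (0.28, adjusted p = 0.0053), while NDUFV3 was lower with TPM as deposited (-0.23, adjusted p = 0.031). Per ATP5F1B transcript, ATP5F1E stood at 0.0407 to 0.0473 in untreated libraries and at 0.106 to 0.152 in irradiated ones. ATP5IF1, the inhibitor that blocks the synthase when it runs backwards, fell little (log2 differences of -0.40, -0.25 and -0.33), and its ratio to ATP5F1B went from 0.246 to 0.282 up to 0.386 to 0.678.

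**Figure D3:**
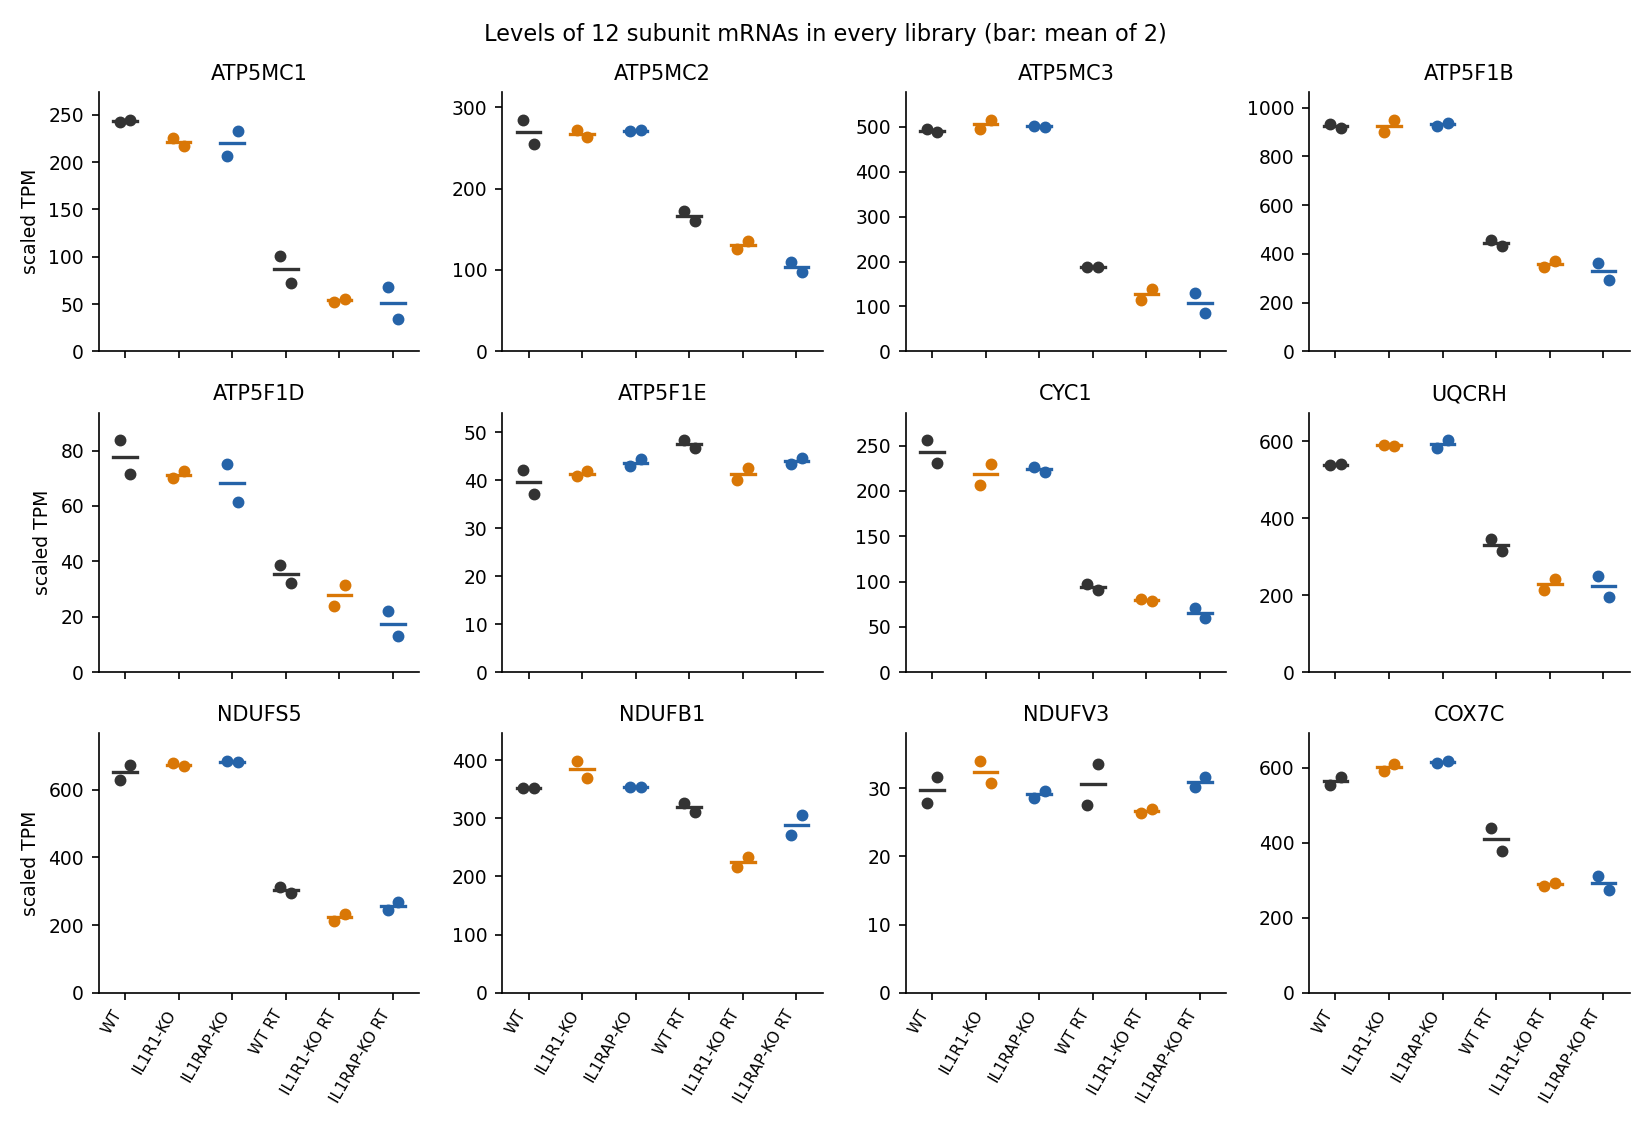
Scaled TPM (vertical axis from 0) of 12 members in the 2 libraries of each of the 6 groups, points for libraries and bars for their means. ATP5MC1, ATP5MC3, ATP5F1B, CYC1 and NDUFS5 drop in every irradiated library, whereas NDUFV3 stays at 26.4 to 34.0 and ATP5F1E lies between 37.2 and 48.3, highest in the WT RT libraries.

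The stalk that holds F1 to the membrane fell as a whole. ATP5PO (log2 difference -1.18 in the mean of genotypes) and ATP5PB (-1.04) fell more than ATP5PF (-0.70) and ATP5PD (-0.41), all 4 passing in each genotype. The 5 tested small membrane subunits also passed in each genotype, from ATP5MF (-0.95) to ATP5ME (-0.63). ATP5MF-PTCD1, a read-through gene that shares exons with ATP5MF, stood at 2.9 to 5.5 scaled TPM, and how reads were divided between them makes its value uncertain.

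In complex III, CYC1, which encodes cytochrome c1, the electron donor to cytochrome c, fell most. Its levels were 256 and 231 scaled TPM in WT, 207 and 229.9 in IL1R1-KO and 227 and 221 in IL1RAP-KO cells, and 97.8 and 90.5, 80.5 and 78.8, and 71.0 and 60.03 after irradiation. The log2 differences were -1.36, -1.44 and -1.76 (SE 0.10, largest adjusted p = 5.6e-06). UQCRH, the hinge subunit that helps cytochrome c1 meet cytochrome c, had log2 differences of -0.71, -1.37 and -1.42, and UQCRC2, a core protein, of -0.88, -1.17 and -1.17. CYC1 mRNA per UQCRC1 mRNA went from 0.567 to 0.689 down to 0.328 to 0.413. UQCRHL, a near copy of UQCRH, stayed at 0.6 to 1.5 scaled TPM and is uncertain, since reads of the pair can be shared.

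In complex I, 36 of 37 members fell in the mean of genotypes, the exception being NDUFV3. NDUFS5, an accessory subunit on the outer face of the inner membrane and the most abundant complex I member, stood at 630.4 to 685 scaled TPM in the untreated libraries and at 312 and 295 in WT RT, 212 and 233 in IL1R1-KO RT and 245 and 269.5 in IL1RAP-KO RT. Its log2 differences of -1.10, -1.60 and -1.41 (largest adjusted p = 5.5e-06) were more than 2-fold in each genotype, as were those of NDUFB2 (-1.01, -1.18 and -1.42), a membrane-arm accessory subunit. All 7 nuclear core subunits, which bind flavin or iron-sulphur clusters or line the quinone site, fell in the mean of genotypes (median -0.83), among them NDUFS1 (-0.97) and NDUFV2 (-0.84). NDUFS7 had a log2 difference of -1.66 in IL1RAP-KO cells, where replicate 2 stood at 10.0 scaled TPM and replicate 1 at 22.1. NDUFV3, an accessory subunit of the flavin-carrying tip, was 27.9 to 34.0 scaled TPM in untreated and 26.4 to 33.6 in irradiated libraries (log2 differences of 0.03, -0.27 and 0.09, smallest adjusted p = 0.068).

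All 4 subunits of complex II, the only complex encoded wholly by nuclear genes, fell in the mean of genotypes. SDHB, the iron-sulphur subunit, had -0.87, SDHA, the flavoprotein, -0.79, and the membrane anchors SDHD and SDHC -0.78 and -0.49. SDHC did not pass in WT (-0.24, adjusted p = 0.10).

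In complex IV all 12 tested members fell in the mean of genotypes. COX8A (-1.15), COX7A2 (-1.06) and COX6C (-0.94) had the largest falls, although COX8A was at 59.8 scaled TPM in IL1RAP-KO RT replicate 2 and at 128 to 163 in the other irradiated libraries. COX4I1, an early assembly partner of the core and the most abundant complex IV member, went from 636 to 674 scaled TPM down to 522 and 468 in WT RT, 338 and 365 in IL1R1-KO RT and 366 and 387 in IL1RAP-KO RT. Both WT RT libraries lay above the other irradiated ones (log2 differences of -0.42, -0.87 and -0.82). Of the paired isoforms, the widely expressed COX4I1, COX6A1, COX6B1, COX7A2, COX7B and COX8A were present, and their partners COX4I2, COX6A2, COX6B2, COX7A1, COX7B2 and COX8C stayed below the filter before and after irradiation. COX7A2L, which links complexes III and IV into supercomplexes, had the smallest fall (-0.35, and -0.27 with an adjusted p of 0.069 in WT), and its share of COX7A2 plus COX7A2L mRNA went from 29.0% to 33.9% up to 37.2% to 52.1%.

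The mitochondrially encoded mRNAs went the opposite way to their nuclear partners. Of 13, 12 were higher in WT, 11 in IL1R1-KO and 13 in IL1RAP-KO cells after irradiation, with median log2 differences of 1.10, 0.93 and 1.71 and none lower, also with TPM as deposited and with the nuclear sum. MT-ND1 (2.37, 1.85 and 2.57) and MT-ND2 (2.18, 1.93 and 2.61), core subunits of complex I, rose most, and MT-ATP6 (0.89, 0.47 and 1.22) and MT-ATP8 (0.68, 0.43 and 1.46) least in IL1R1-KO, where neither passed (adjusted p = 0.054 and 0.22).

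The ratio of mitochondrial to nuclear subunit mRNA needs no scaling factor. For complex I it was 7.59 to 8.95 in untreated libraries, and after irradiation 39.8 and 37.3 in WT, 38.3 and 39.0 in IL1R1-KO and 46.1 and 89.7 in IL1RAP-KO. It went from 3.23 to 4.23 up to 14.4 to 37.1 for complex III, from 11.7 to 13.9 up to 35.1 to 78.8 for complex IV and from 6.78 to 8.41 up to 20.8 to 60.6 for complex V. Untreated and irradiated libraries did not overlap for any complex, and IL1RAP-KO RT replicate 2 was highest for each. Mitochondrially encoded mRNA went from 16.9% to 19.5% of all TPM untreated up to 33.1% to 51.8% irradiated. All nuclear protein-coding genes together went from 76.9% to 79.8% down to 40.7% to 60.95%. Part of the rise in each ratio was therefore shared with nuclear genes at large.

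Other lists of mitochondrial and energy genes were read beside the members. Of 14 tested tricarboxylic acid cycle genes 13 fell in each genotype, with medians of -0.65, -0.89 and -0.84 close to those of the members, led by FH (fumarase, -1.50 in the mean of genotypes) and MDH2 (malate dehydrogenase, -1.21). Glycolysis genes fell as well, 12, 17 and 16 of 18 (medians -0.74, -1.02 and -1.05), with ALDOC at -2.12 and LDHB at -1.32. With the nuclear sum set equal the medians of the mean of genotypes were -0.48 for the tricarboxylic acid cycle and -0.62 for glycolysis, beside -0.46 for the members.

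Assembly factors, which help to build the complexes but are not part of them, had smaller medians. Of 17 for complex I, 8, 11 and 9 were lower (medians -0.19, -0.49 and -0.41), with NDUFAF3 at -1.54 and ECSIT at -1.29 in the mean of genotypes. Of 25 for complex IV, 12, 13 and 15 were lower and 2, 4 and 2 higher, with LRPPRC, a stabilizer of mitochondrial mRNA, at -0.98 and COX20, which helps to insert COX2, at 1.16. In the mean of genotypes the 4 complex II factors had 1 lower (SDHAF3, -0.35), the 6 complex III factors 2 lower and 2 higher (UQCC2 -0.86, TTC19 -0.53) and the 4 tested complex V factors 3 lower (TMEM70 -0.52, FMC1 -0.46). Of all genes 34.1% were lower in that mean, and the lower counts of the complex II and III factors did not exceed that share. The share of all genes higher in that mean is not given here, so counts of higher genes have no background. Of 14 genes for cytochrome c and coenzyme Q synthesis 10 were lower and 1 higher, with PDSS1 at -1.77 and COQ2 at -1.61. Of 16 regulators of mitochondrial biogenesis 10 were lower and 3 higher. With the nuclear sum the medians of the complex I assembly factors (-0.08, 5 lower and 2 higher) and of these regulators (-0.04, 6 lower and 4 higher) were near 0 in the mean of genotypes. The all-gene medians with that sum, given above for each genotype, lay above 0. A median near 0 thus does not place these lists level with all genes, and the shares of all genes called with that sum were not counted. The complex IV factors had 9, 4 and 7 lower and 4, 11 and 6 higher with that sum, so that more were higher than lower in IL1R1-KO. Their median there was 0.20, which still lay below the all-gene median given above for IL1R1-KO with that sum. The cytochrome c and coenzyme Q genes had 5 lower and 4 higher with it in the mean of genotypes. The complex II factors then had 0 lower and 1 higher, those of complex III 2 and 4, and those of complex V 1 and 1. TFAM (-1.17) and TFB2M (-0.85), needed to transcribe mitochondrial DNA, fell while the mitochondrial mRNAs rose.

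Each KO was then compared with WT. Without irradiation no member passed in either line (limma). The members' median log2 difference was 0.02 in cells labelled IL1R1-KO, where 0.183% of all genes passed, and 0.03 in IL1RAP-KO cells, where 0.124% passed. Neither comparison had a member at an unadjusted p under 0.05. The fit shares 1 spread over all 6 groups, and replicates differed most in IL1RAP-KO RT (SD 0.31 log2 units). Standard errors of the untreated comparisons can thus be too wide, and small differences can be missed.

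After irradiation, members were on the low side in both KO lines, and the number that passed rested on the scaling. In cells labelled IL1R1-KO 18 of 82 members were lower than in WT RT and none higher (7.59% of all genes lower, 4.65% higher), with a median log2 difference of -0.22 and negative values for 77 of 82. In IL1RAP-KO cells 30 were lower and none higher (9.32% lower, 5.60% higher), with a median of -0.31 and negative values for 74. With TPM as deposited, 2 members were higher and 0 lower in IL1R1-KO RT (median 0.05 beside an all-gene median of 0.23), and 0 higher and 7 lower in IL1RAP-KO RT (-0.39 beside -0.07). With the nuclear protein-coding sum set equal, 14 were higher and 0 lower (0.14 beside 0.31), and 8 higher and 4 lower (-0.04 beside 0.24). The shares of all genes called under these 2 scalings were not counted. The members lay below the median gene by -0.17 to -0.22 and -0.28 to -0.32 in all 3 scalings, while the direction against WT turned with the scaling. Both comparisons use the same WT RT libraries, and without WT RT replicate 1 only 2 and 1 members were lower.

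**Figure D4:**
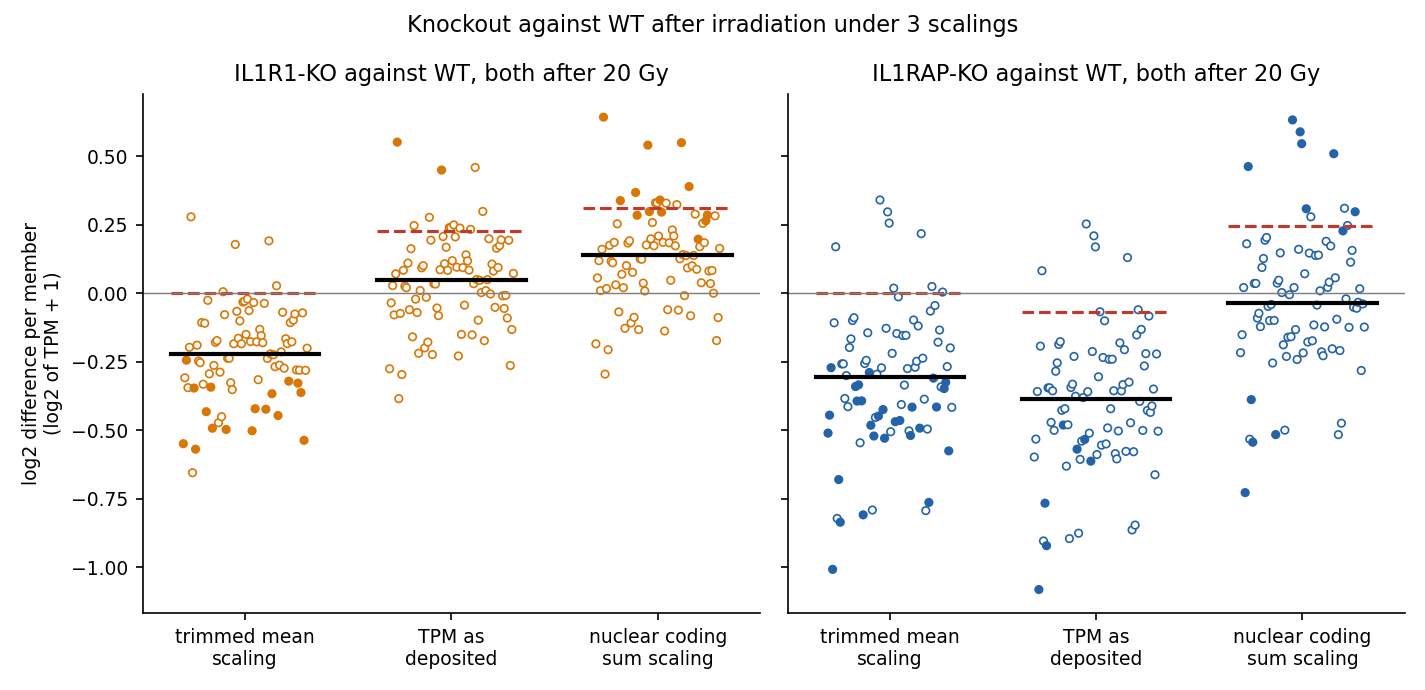
Log2 difference of the 82 tested members between each KO and WT, all irradiated, under 3 ways of scaling the libraries. Points are members, filled at an adjusted p under 0.05, black bars are their medians and red dashed bars the medians of all tested genes. In each column the black bar lies below the red one, and both move up or down with the scaling.

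The members with the smallest adjusted p in IL1R1-KO RT were COX4I1 (-0.49, SE 0.08, adjusted p = 0.0032), NDUFB1 (-0.50, SE 0.08, adjusted p = 0.0039), NDUFS5 (-0.45, adjusted p = 0.0059) and COX7C (-0.50, adjusted p = 0.0062). NDUFS1, ATP5F1A, ATP5PB, UQCRH, NDUFB11, ATP5F1C, ATP5PO and ATP5MC2 followed in order of adjusted p, between -0.24 and -0.55. The lowest value was that of ATP5MC1, which did not pass (-0.65, SE 0.26, adjusted p = 0.14). All of these missed the threshold with TPM as deposited and with the nuclear sum.

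In IL1RAP-KO RT the smallest adjusted p was that of ATP5MC2 (-0.68, SE 0.09, adjusted p = 0.0016), which also passed with TPM as deposited (-0.77, adjusted p = 0.017), with the nuclear sum (-0.39, adjusted p = 0.0076) and without any 1 library, but not in a fit of the compared libraries alone (adjusted p = 0.14), where no member passed. ATP5MC3 (-0.84, adjusted p = 0.011) passed under the same scalings but not without WT RT replicate 1. NDUFA3, NDUFB9, COX7C, CYC1, NDUFS3, UQCRH, COX4I1, COX6B1, NDUFB8 and ATP5F1A followed, between -0.39 and -0.81. ATP5F1D was the single member below WT RT by more than 2-fold (-1.01, adjusted p = 0.018, where 2.08% of all genes were). It lost its call when WT RT replicate 1 or replicate 2 of IL1RAP-KO RT was left out. Its transcript had 69.5% G and C bases (GC), the highest of the members. Across members the difference from WT had a Spearman correlation with transcript GC of -0.53 in IL1RAP-KO RT and 0.01 in IL1R1-KO RT. Untreated, it was -0.33 and -0.38. For replicate 2 minus replicate 1 it was -0.33 in IL1RAP-KO RT and -0.49 in WT. The part of GC in these values was not tested.

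The difference between the responses to irradiation, KO minus WT, was tested as an interaction. It passed for 3 members in IL1R1-KO (2.01% of all genes lower) and for 1 in IL1RAP-KO (1.06% lower), all with a deeper fall in the KO. NDUFB1, a small membrane-arm subunit of complex I, stood at 353 and 353 scaled TPM in WT and 398 and 369.8 in IL1R1-KO cells, and at 327 and 310.5 and at 215 and 234 after irradiation. The change in WT was -0.15 (adjusted p = 0.17), and it was -0.41 with TPM as deposited (adjusted p = 0.0048), against -0.77 in the cells labelled IL1R1-KO, with a difference in response of -0.62 (SE 0.11, adjusted p = 0.022).

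COX7C, a small membrane subunit of complex IV, went from 554 and 574 to 440.1 and 378 in WT and from 591 and 610.2 to 286 and 292 in IL1R1-KO (difference -0.59, SE 0.12, adjusted p = 0.040). NDUFS5 had a difference of -0.50 (SE 0.11, adjusted p = 0.048). In IL1RAP-KO cells the member was ATP5MC2, with a difference of -0.69 (SE 0.12, adjusted p = 0.030). None of the 4 passed with TPM as deposited (smallest adjusted p = 0.20) or with the nuclear sum (smallest adjusted p = 0.069), and each lost its call without WT replicate 1, WT replicate 2, WT RT replicate 1 and other libraries.

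Among the libraries of 1 group the members agreed to an SD of 0.10 to 0.15 log2 units between replicates, except in IL1RAP-KO RT, where it was 0.31 and replicate 2 lay lower by a median of -0.20. A fall of more than 2-fold was called for 9 members in WT (6.23% of all genes), for 29 in IL1R1-KO (8.35%) and for 39 in IL1RAP-KO (9.33%). The last count was 23 without that library. In the same order the counts were 30, 27 and 65 with TPM as deposited and 4, 3 and 12 with the nuclear sum, so the order of WT and IL1R1-KO turned with the scaling. The 8 members that fell by more than 2-fold in all 3 genotypes (ATP5F1B, ATP5F1C, ATP5F1D, ATP5MC1, ATP5MC3, CYC1, NDUFB2 and NDUFS5) were the same 8 without it. With TPM as deposited they were 20, and with the nuclear sum 2, ATP5MC1 and ATP5MC3. The share of all genes past 2-fold in all 3 genotypes was not counted. On the main scale it cannot exceed the 6.23% of WT. No share of all genes was counted for the 2-fold calls under the other 2 scalings.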

How the data were processed

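Total RNA of 12 MCF10A libraries was depleted of ribosomal RNA and made into stranded libraries. The authors trimmed reads (cutadapt 1.15), aligned them to GRCh38 (STAR 2.5.3a), counted them per gene (HTSeq, ENSEMBL 83) and used DESeq2 for their own tests. The values the authors deposited are TPM for 60675 genes, which keep no record of read depth, so counting error is not given. The sources used here do not say how gene lengths were set.

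TPM was multiplied by trimmed mean factors (30% of ratios and 5% of levels trimmed at each end), and log2(scaled TPM + 1) was computed from the deposited values for 15303 genes that reached 1 TPM in 2 or more libraries. limma 3.58.1 (R 4.3.3) was fitted to 6 group means, with Benjamini-Hochberg adjustment over all genes tested, and was tested on simulated data. Python 3.11.15, pandas 2.3.3 and matplotlib 3.10.9 did the rest, and positions came from GENCODE 44. Fold changes on this scale understate those of low genes.

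Named members were up to 12 of smallest adjusted p per comparison with WT, those past 2-fold after irradiation, the 3 of smallest p and 2 most abundant per complex, and isoform families. Other genes were up to 2 per list. ATP5F1E, NDUFV3, UQCRHL and the stalk and membrane subunits were chosen after their values were seen. Members and lists were chosen with earlier results of these data known. Deviations of same-numbered libraries correlated by -0.06 to 0.09 (median 0.01, 15 pairs), so replicate numbers were not taken as pairs. The 2-fold counts without 1 library and the lists under other scalings were added after seeing the data.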

Additional observations from a re-analysis of the deposited data

Results flagged for a closer look

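The change after irradiation differed between a KO and WT, by an interaction term (limma), for 4 of the members' results. In cells labelled IL1R1-KO minus WT the differences on the log2 scale were -0.62 for NDUFB1 (adjusted p = 0.022), -0.59 for COX7C (adjusted p = 0.040) and -0.50 for NDUFS5 (adjusted p = 0.048), which is 3 of 82 where 2.01% of all genes were lower. In IL1RAP-KO minus WT it was -0.69 for ATP5MC2 (adjusted p = 0.030), which is 1 of 82 and near the 1.06% of all genes that were lower. None passed with TPM as deposited or with the nuclear protein-coding sum set equal, and 8, 9, 10 and 9 of the 12 fits that left out 1 library lost them, in the order given. IL1RAP-KO RT replicate 1 correlated across genes less with replicate 2 of its own group (0.972) than with IL1R1-KO RT replicate 2 (0.981). Untreated IL1R1-KO replicates 1 and 2 likewise correlated less with each other (0.9851) than with untreated IL1RAP-KO replicate 2 (0.9855 and 0.9882).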

How the results depend on the processing

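Lower counts after irradiation ranged over 57 to 73 (WT), 66 to 77 (IL1R1-KO), 72 to 77 (IL1RAP-KO) and 79 to 79 (mean) when 1 library was left out, and the WT count of higher members over 0 to 1. KO against WT after RT ranged over 2 to 31 lower and 0 to 1 higher in IL1R1-KO and 1 to 55 lower and 0 to 3 higher in IL1RAP-KO, and the differences in response over 0 to 14 and 0 to 36. Without WT RT replicate 1 these lower counts were 2 and 1, without IL1R1-KO RT replicate 1 the first was 2, and without IL1RAP-KO RT replicate 1 they were 31 and 55. A fit that leaves out a library assumes that the lone one varies like the other groups.

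With a call that also asks for a 2-fold change, 9, 29, 39 and 23 members were lower after irradiation in WT, IL1R1-KO, IL1RAP-KO and the mean, 0 higher in WT, 0 and 1 lower in the KO lines against WT after RT, and 0 and 0 in the differences. With TPM as deposited the WT count higher was 0, KO against WT after RT was 0 lower and 2 higher in IL1R1-KO and 7 lower in IL1RAP-KO, and the differences were 0 and 0. With the nuclear sum set equal, irradiation gave 49 lower and 4 higher in IL1R1-KO, 3 higher in IL1RAP-KO and 2 higher in the mean. KO against WT after RT then gave 0 lower and 14 higher, and 4 lower and 8 higher, and the differences 0 lower and 1 higher, and 0. Without the filter on low values 0 were higher in WT and 1 in IL1RAP-KO after irradiation, 10 lower in IL1R1-KO RT against WT RT and 1 in its difference. With the compared libraries alone 0 were higher in WT, 2 and 0 lower against WT after RT, and 5 and 0 in the differences, with fewer samples behind the spread.

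With the replicate number as a block, irradiation gave 68, 75, 77 and 79 lower members, KO against WT after RT 15 and 25 lower with 1 higher in IL1RAP-KO, and the differences 1 and 1. The pairing check is in the processing account, and the samples share only a number.

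Of named members, some turned sign in IL1R1-KO RT against WT RT. ATP5F1C was 0.028 with TPM as deposited and 0.12 with the nuclear sum, ATP5PO 0.020 and ATP5MC2 0.017 with the nuclear sum. ATP5F1E in WT after irradiation was -0.00073 with TPM as deposited. The cause was not tested. A pseudocount of 0.1 changed no count of members by more than 1.5 times. Depth is unknown in these files, and with 2 libraries a group the spread rests on 6 residual degrees of freedom. The share of all genes called was counted only for the main fit.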
